A study of Homo sapiens with 4 samples.

Results

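The genes described here encode the proteins of the cytoplasmic ribosome and were chosen by name. They are the genes whose probe sets carry exactly 1 symbol in the platform annotation, where that symbol belongs to the RPL (large subunit), RPS (small subunit) or RPLP (stalk) series or is RPSA, with the RPS6K kinases left out. This gave 55 genes, measured by 114 probe sets, among 19775 genes measured by 41091 probe sets with 1 symbol. The probe set with the highest mean signal stood for each gene unless another is named. The rule used names and brightness and neither the treatment nor the replicate number, but it was set with earlier results of these data known. The set held 30 large-subunit genes, 20 small-subunit genes, the stalk genes RPLP1 and RPLP2, and the 3 tissue-restricted paralogs RPL3L, RPL10L and RPL39L. A further 15 ribosomal protein symbols, among them RPL5 and RPL13A, stood only on probe sets with several symbols and are not reported by name. RPLP0, RPSA and RPS27A were not analysed here.

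The samples were 4 Affymetrix arrays of the line AGS, which was established from a human gastric adenocarcinoma, so the data describe 1 line in culture. In the LPS group, 2 arrays came from cells kept 8 h in medium with 10 µg/ml lipopolysaccharide, the outer-membrane glycolipid, of Helicobacter pylori. In the untreated group, 2 arrays came from cells given fresh medium for the same time. Both groups grew in serum-supplemented Ham's F-12 with penicillin and streptomycin, and the arrays of each group are numbered 1 and 2. The design text speaks of 2 independent experiments, but the labels do not say that a number marks an experiment. The p-values set a difference against the spread between these samples only, estimated for each gene with help from all genes tested.

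A ribosome is built from ribosomal RNA and a fixed set of proteins, most of which are needed in equal amounts. Surplus ribosomal proteins are degraded, and the messages are abundant, short and long-lived. Most of these mRNAs begin with a terminal oligopyrimidine (TOP) tract, a C at the cap followed by a run of C and U, through which growth signals from mTOR control their translation. Control at that step changes protein output without changing mRNA level, so an array of total RNA does not record it. The family is also known beyond the ribosome: RPL5 and RPL11 bind MDM2 and so connect ribosome assembly to p53, and RPS3 has been described as a partner of the NF-kB subunit p65.

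The start of the gene carries the feature that defines these mRNAs, so it is shown here for members on which the comparisons turn. Promoter entries of RefSeq (GRCh38.p14) matched 47 of the 55 genes. The window runs 5′ to 3′ on the gene's strand, from 20 bases before the annotated start to 20 bases from the start on. Capitals mark the unbroken run of C and T that includes the start, and where a gene had several starts the one with the longest run is given. The first 7 genes have the TOP-like start, and the last 3 do not.
RPL39 (chrX:119791611-119791650, minus strand): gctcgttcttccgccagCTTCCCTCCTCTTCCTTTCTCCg
RPL38 (chr17:74203658-74203697, plus strand): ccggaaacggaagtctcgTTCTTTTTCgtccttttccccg
RPL27A (chr11:8682772-8682811, plus strand): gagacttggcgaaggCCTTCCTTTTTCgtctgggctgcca
RPLP2 (chr11:809947-809986, plus strand): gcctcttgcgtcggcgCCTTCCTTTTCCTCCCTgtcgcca
RPS6 (chr9:19380217-19380256, minus strand): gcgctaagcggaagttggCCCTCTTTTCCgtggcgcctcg
RPS3 (chr11:75399498-75399537, plus strand): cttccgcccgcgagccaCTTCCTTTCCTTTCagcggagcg
RPS9 (chr19:54200838-54200877, plus strand): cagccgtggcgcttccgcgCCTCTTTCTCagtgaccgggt
RPL10A (chr6:35468381-35468420, plus strand): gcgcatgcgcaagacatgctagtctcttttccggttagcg
RPS29 (chr14:49598691-49598730, minus strand): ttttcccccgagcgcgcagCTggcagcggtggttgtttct
RPL10L (chr14:46651762-46651801, minus strand): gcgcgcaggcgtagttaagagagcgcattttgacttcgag

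A C at the annotated start followed by at least 4 pyrimidines was present in 34 of the 47 genes (72.3%), against 5.14% of the 27305 genes in the promoter table. The run from the start on had a median length of 7 bases, and in RPL39 it reached 19. RPL10A also carries a pyrimidine run, but it begins after the annotated start. The letters CCGGAA, the core of ETS-factor sites, occurred on either strand of the 300-base promoter window in 57.4% of the members and 20.1% of all genes. On the other strand these letters read TTCCGG and can overlap the end of the pyrimidine run. TATAAA on either strand was found in 8.51% of members and 14% of all genes. RPL10L, an intronless paralog of RPL10 used in the testis, had no pyrimidine at its annotated start. The members lie on 19 chromosomes, with 7 on chromosome 19 and 6 on chromosome 3, so they are not neighbours in one cluster.

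The array values are log2 signals, and the medians of the arrays over all probe sets were 6.31 to 6.36. Offsets of that size matter for differences as small as those below, as the closing section on processing shows. The epithelial markers EPCAM, KRT8, KRT18 and KRT19 lay between 12.43 and 14.45 on every array, as the label of gastric epithelial cells implies. Of the 12 gastric epithelial genes listed, 9 lay above 7.25, the median signal over genes, among them the stomach mucosa genes TFF1 (12.07 to 12.27) and MUC5AC (7.63 to 8.03), while TFF2, CLDN18 and GKN1 lay below it. Of the markers of other cells, 5 of 6 leukocyte genes and 7 of 8 fibroblast or endothelial genes lay below that median. The list means were 6.32 and 6.53 on the LPS arrays and 6.54 and 6.52 on the untreated arrays for leukocytes, and 6.07 and 6.20 on the LPS arrays and 6.08 and 6.09 on the untreated arrays for fibroblast and endothelial cells. In 48 of the 55 ribosomal protein genes the mean signal was at or above 13, and for 38 it lay within 1 log2 unit of 14.83, the highest value in the table. Whether signal at that height still follows the amount of RNA in proportion was not tested. Of the other 7 genes, RPL35A was just under 13, RPL27A lay between the median over genes and 13, and 5 lay below that median: RPL36A, RPLP2 and the 3 paralogs.

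After LPS no ribosomal protein gene passed the test of a difference from untreated cells. With limma, 0 of 55 members passed an adjusted p of 0.05 (smallest adjusted p = 1), against 0% of all 19775 genes. At an unadjusted p under 0.05 there were also 0 members, where 2.83% of all genes lay. The differences, LPS minus untreated, had a median of 0.0066 over the 55 genes and 0.017 over all genes, with 29 members above 0 and 26 below. Apart from RPL27A, they ran from -0.12 (RPL39) to 0.12 (RPL39L). Without LPS array 2, which leaves 1 array in that group, the median was -0.020 over members and -0.012 over all genes. Without LPS array 1 the medians were 0.022 and 0.0465. The 95% interval of 49 members (89.1%) lay inside a 1.25-fold change in either direction, against 34.6% of all genes. In the lists of other translation genes described below, this share ran from 25% (chaperones of ribosomal proteins) to 100% (ubiquitin fusions and paralogs). It was 92.9% for 14 other TOP mRNAs. The other 6 ribosomal protein members were RPL27A and the 5 members below the median over genes. For RPL27A and RPLP2 alone the interval reached past 1.5-fold.

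**Figure D1:**
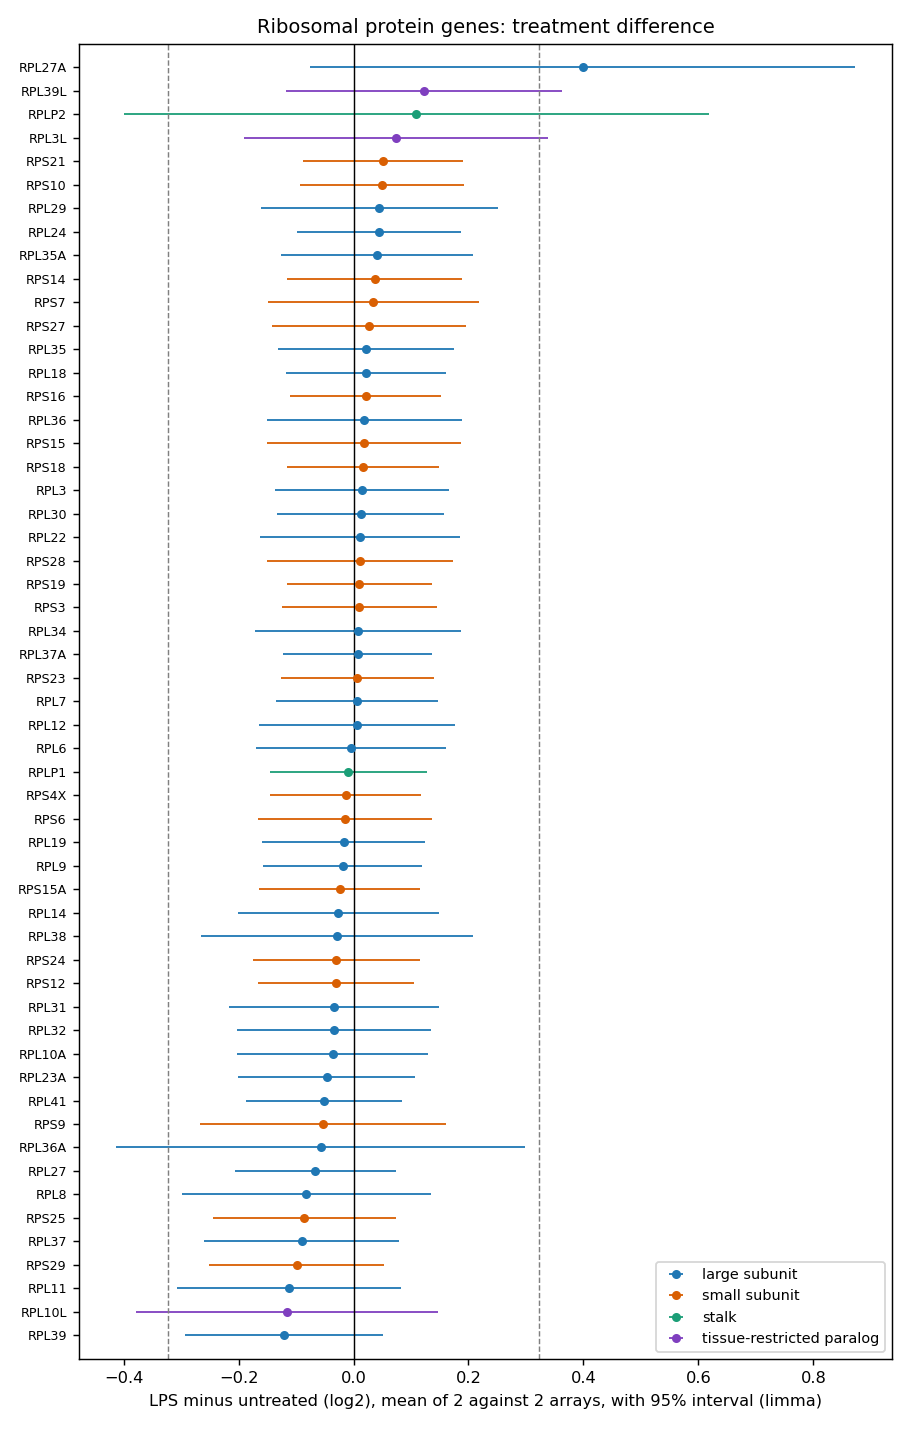
Difference between LPS-treated and untreated cells (x axis, log2) for each of the 55 ribosomal protein genes, with the 95% interval of limma and 2 arrays in each group; colours give the subunit, and dashed lines mark 1.25-fold either way. All 55 intervals include 0, and 49 lie between the dashed lines, while those of RPL27A and the dim RPLP2 are the widest.

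Arrays of the groups did not overlap for 5 members in the higher direction (9.09%, against 17.9% of all genes) and for 8 in the lower direction (14.5%, against 11.7% of all genes). Those 8 included RPL39, RPL10L, RPS29 and RPS25, and also RPS4X, named after its values were seen, whose arrays lay within 0.024 of each other. The 5 were RPL27A, RPL35A, RPL24, RPS10 and RPS21.

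Among the large-subunit genes, RPL27A stood furthest from 0. It was at 9.31 and 8.65 on the LPS arrays numbered 1 and 2, against 8.65 and 8.52 on the untreated arrays. Only LPS array 1 stood apart, while LPS array 2 was level with untreated array 1. The difference was 0.40, with an interval of -0.08 to 0.87 (limma, adjusted p = 1). It was 0.73 without LPS array 2 and 0.07 without LPS array 1. The annotation also lists RPL27A on probe sets with several symbols, which did not enter the choice of its probe set.

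RPL39, one of the smallest ribosomal proteins, which lines the exit tunnel for the growing chain, was at the other end. Its signal was 14.10 and 14.27 on the LPS arrays, against 14.32 and 14.28 on the untreated arrays. Both LPS arrays were lower, the second by 0.012, and the difference of -0.12 had an interval of -0.29 to 0.05 (limma, adjusted p = 1). RPL11, which takes part in the 5S particle and binds MDM2, was at 13.43 and 13.64 in LPS-treated cells and 13.68 and 13.62 in untreated cells. LPS array 2 lay between the untreated arrays, and the difference was -0.11 (-0.31 to 0.08; limma, adjusted p = 1). RPL37 had 13.92 and 14.07 after LPS, against 14.12 and 14.04 in untreated cells, a difference of -0.09 with arrays that overlapped. RPL38, known in the mouse for its part in the translation of Hox mRNAs, was at 13.52 and 13.84 after LPS and at 13.71 on both untreated arrays. The LPS arrays thus lay on opposite sides of the untreated ones, and the difference was -0.03 (-0.26 to 0.21). RPL8 followed the same order, with 13.71 and 13.98 after LPS against 13.91 and 13.94, and a difference of -0.08.

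The stalk proteins recruit the GTPases that drive elongation. RPLP1 was at 14.32 and 14.38 on the LPS arrays and 14.35 and 14.36 on the untreated arrays, a difference of -0.01 (-0.15 to 0.13). RPLP2, its partner, was represented by a dim probe set, at 7.21 and 6.48 after LPS, against 6.74 and 6.73 in untreated cells. The LPS arrays lay on both sides of the untreated ones and 0.73 apart, and the difference of 0.11 had an interval of -0.40 to 0.62 (limma, adjusted p = 1). The annotation lists RPLP2 also on probe sets with several symbols, which are not shown here. RPL36A was likewise dim, at 5.62 and 5.18 after LPS and 5.40 and 5.51 in untreated cells.

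The median range over the 4 arrays was 0.097 for the 20 small-subunit genes, 0.14 for the 30 large-subunit genes and 0.24 over all genes tested. RPS3 was at 14.20 on both LPS arrays, against 14.20 and 14.18 on the untreated arrays, a difference of 0.01 (-0.13 to 0.15). RPS19, the gene most often mutated in Diamond-Blackfan anaemia, had 14.75 and 14.76 after LPS and 14.76 and 14.73 in untreated cells. RPS6, whose protein is phosphorylated by the S6 kinases downstream of mTOR, had 14.49 and 14.37 after LPS, against 14.47 and 14.42. Its difference was -0.015, and in all 3 genes the groups overlapped.

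The lowest small-subunit values relative to untreated cells were those of RPS29 and RPS25. RPS29, a zinc-binding protein of the subunit's head, had 14.22 and 14.34 after LPS, against 14.40 and 14.35 in untreated cells, a difference of -0.10 (-0.25 to 0.05; limma, adjusted p = 1). RPS25, which internal ribosome entry sites require, had 13.16 and 13.17 against 13.29 and 13.22, a difference of -0.09 (-0.24 to 0.07). In both genes the LPS arrays lay below the untreated arrays. The highest were RPS21, with 14.27 and 14.33 after LPS against 14.23 and 14.27, and RPS10, with 14.05 and 14.11 against 14.02 and 14.04. Each differed by 0.05, and neither passed the test (limma, adjusted p = 1 for both).

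The paralogs are known from other tissues: RPL3L from heart and skeletal muscle, RPL10L and RPL39L from testis. RPL39L was at 4.71 and 4.84 after LPS, against 4.58 and 4.73 in untreated cells, a difference of 0.12 (-0.12 to 0.36). RPL3L had 5.59 and 5.76 against 5.57 and 5.64, a difference of 0.07, and the arrays of both genes overlapped. RPL10L had 6.82 and 6.84 after LPS against 6.96 and 6.93, a difference of -0.12 (-0.38 to 0.15; limma, adjusted p = 1), with LPS arrays below untreated ones. All 3 lay below the median over genes, and whether their signal exceeds background was not tested.

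The TOP-like start did not separate members by their treatment difference. The 34 genes with it had a median of 0.0089 and the 13 matched genes without it a median of -0.017, and the ranges overlapped (-0.12 to 0.40 and -0.12 to 0.03). By replicate number the medians were 0.036 with it and -0.0034 without it, and the ranges overlapped (-0.40 to 0.15 and -0.13 to 0.12). Genes without it include RPL19 and RPS7, whose pyrimidine runs of 12 and 11 bases span the annotated start but miss the definition.

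The replicate numbers gave opposite signs for most members. LPS minus untreated had a median of -0.029 on number 1 and 0.032 on number 2, while over all genes the medians were 0.0048 and 0.024. The sign differed between the numbers for 34 of the 55 members (61.8%, against 43.5% of all genes). Of these, 27 were lower with LPS on number 1 and higher on number 2, and 7 the other way. Both numbers gave a higher value with LPS for 11 members and a lower one for 10.

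**Figure D2:**
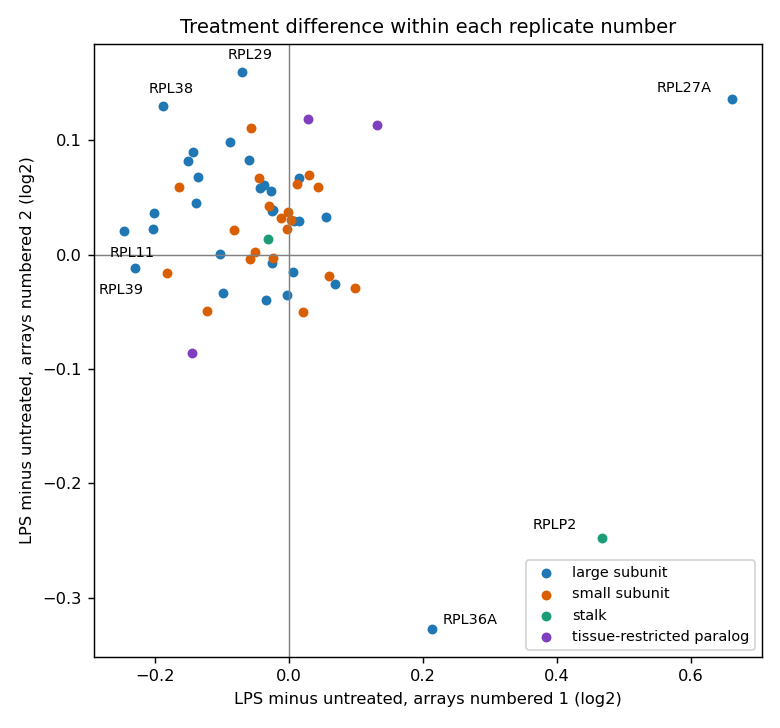
LPS minus untreated on number 1 (x axis, log2) and on number 2 (y axis, log2), 1 point for each of the 55 genes, coloured by subunit. The upper left quadrant holds the most points, with 27 genes below 0 on number 1 and above 0 on number 2, and RPL27A, RPLP2 and RPL36A lie outside the cloud.

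LPS array 1 was the lowest of the 4 arrays for 30 members (54.5%, against 30.0% of all genes), and LPS array 2 was the highest for 27 (49.1%, against 39.3% of all genes). Untreated array 1 was the highest for 19 (34.5%, against 19.6% of all genes). LPS array 2 was above LPS array 1 for 42 members, with a median difference of 0.058. Over all 19775 genes this held for 12066, with a median of 0.053. Untreated array 2 was above untreated array 1 for 20 members, with a median of -0.016. Over all 19775 genes this held for 11208, with a median of 0.027. The median size of the difference was 0.10 between the LPS arrays and 0.034 between the untreated arrays, against 0.14 and 0.11 over all genes. The ribosomal protein signal was thus more closely repeated between the untreated arrays than between the LPS arrays. Why was not tested.

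**Figure D3:**
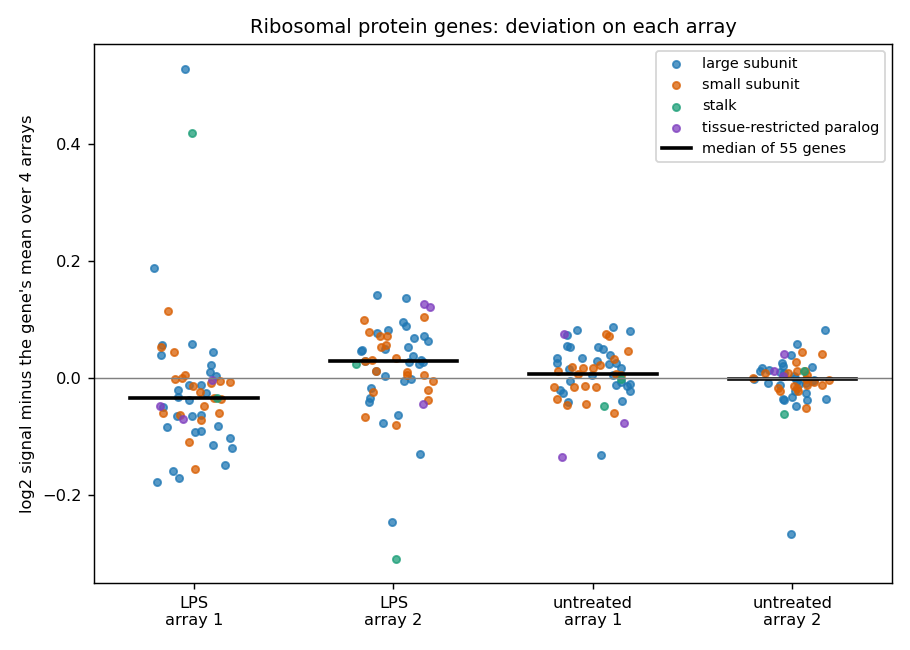
Signal of each gene on each array minus the gene's mean over the 4 arrays (y axis, log2), with 55 points per array coloured by subunit and a bar at the median. The bar lies at -0.033 for LPS array 1, 0.030 for LPS array 2, 0.0072 for untreated array 1 and -0.0021 for untreated array 2, and the untreated arrays show the tighter clouds.

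Between the arrays numbered 2 and those numbered 1, no ribosomal protein gene passed either. In a limma fit with treatment as a term, 0 of 55 members passed an adjusted p of 0.05 (smallest adjusted p = 0.243), against 0% of all genes. Only RPL27A had an unadjusted p under 0.05, that is 1.82% of members, where 18.1% of all genes lay. The number 2 minus number 1 difference had a median of 0.030 over members and 0.045 over all genes. Arrays of the numbers did not overlap for 15 members in the higher direction (27.3%, against 32.6% of all genes) and for 8 in the lower direction (14.5%, against 16.5%). Over all 4 arrays, 48 members (87.3%) stayed within a range of 0.25, against 52.3% of all genes. The share was 92.9% for 14 other TOP mRNAs and 100% for 8 ubiquitin fusions and paralogs outside the naming rule. For the remaining lists of translation genes described below it ran from 37.5% (chaperones of ribosomal proteins) to 70.7% (mitochondrial ribosomal proteins).

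RPL27A averaged 8.59 on number 2 and 8.98 on number 1, a difference of -0.40 (-0.73 to -0.06; limma, adjusted p = 0.243). RPLP2 averaged 6.61 on number 2 and 6.98 on number 1, and its difference of -0.37 was nearly all from the LPS arrays. Among bright genes the lowest was RPS7, needed for pre-rRNA processing, at 14.04 and 14.07 on the arrays numbered 2 (LPS, untreated) and 14.24 and 14.14 on those numbered 1. All number 2 values were below all number 1 values, and the difference was -0.13 (-0.28 to 0.01; limma, adjusted p = 0.305). RPL10A at -0.11 and RPL6 at -0.11 also had no overlap, and within both groups the array numbered 2 was lower by 0.10 to 0.12. Among bright genes the highest were RPL8 (0.15), RPL38 (0.15), RPS9 (0.15) and RPS15 (0.12). The dim paralogs RPL39L (0.14) and RPL3L (0.12) ranked between RPS9 and RPS15. RPS9 was at 13.79 and 13.73 on number 2 against 13.53 and 13.70 on number 1, and LPS array 1 alone stood low. RPS15 was at 14.32 and 14.28 on number 2 against 14.18 and 14.18 on number 1, higher on number 2 by 0.14 between the LPS arrays and 0.10 between the untreated arrays.

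The control probe sets of 18S ribosomal RNA differed far more between the numbers. They averaged 7.98 (LPS) and 8.12 (untreated) on number 2, against 9.89 and 10.07 on number 1, a difference of -1.93. The poly-A spike-in controls differed by -0.75 and the hybridisation controls by -0.53, the last where LPS array 1 had 10.04 and the remaining arrays 9.11 to 9.31. Whether the 18S values follow the amount of ribosomal RNA was not tested. The part of these controls in the ribosomal protein values was not tested either.

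Dimmer probe sets of the same genes covered a wider range of differences. Of the members, 33 had several probe sets, and 59 probe sets were not the brightest of their gene. The 64 probe sets at or above 13 had differences by number of -0.13 to 0.15. The 24 between the median over genes and 13 ran from -0.88 to 0.26, with a median of -0.093. LPS array 1 was the highest array for 13 of these 24, for 12 of the 64 bright ones and for 9 of the 26 below that median. Over all 41091 probe sets with 1 symbol, of any brightness, the share was 23.8%. The share over probe sets of like signal was not computed. With every probe set as its own test, 0 of 114 passed the adjusted p by number and 12 (10.5%) had an unadjusted p under 0.05, against 17.7% of all probe sets. Of those 12, 10 were lower on number 2. Over all genes, each by its brightest probe set, 2127 at that unadjusted p (limma) were higher on number 2 and 1450 lower.

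The following probe sets were chosen after their values were seen. A second RPL37A probe set was at 9.69 and 8.28 on the LPS arrays 1 and 2, against 8.67 and 8.32 on the untreated arrays. The brightest RPL37A probe set differed by 0.015 between the numbers, and this one by -0.88. A dimmer RPS10 probe set was at 8.17 and 7.05 after LPS, against 7.38 and 7.17, and a dimmer RPL38 probe set at 10.18 and 9.42 against 9.69 and 9.44. In all 3, LPS array 1 was highest, as it was for the RPL27A and RPLP2 probe sets above. A dimmer RPL37 probe set was instead high on both number 1 arrays, at 7.34 (LPS) and 7.31 (untreated), and low on both number 2 arrays, at 6.47 and 6.71. None of these 4 passed the adjusted test by number (limma, adjusted p = 0.111 to 0.245) or by treatment. What part of a transcript each probe set reads is not given in the sources used here.

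**Figure D4:**
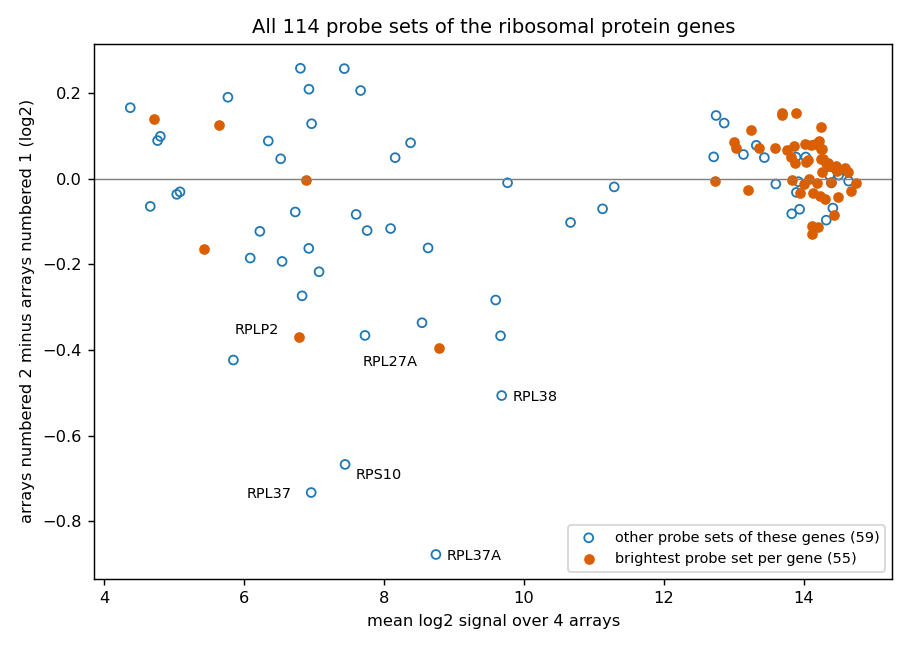
Difference between the arrays numbered 2 and those numbered 1 (y axis, log2) against mean signal over the 4 arrays (x axis, log2) for the 114 probe sets; filled points are the brightest probe set of each of the 55 genes and open points the other 59. Probe sets at or above 13 stay between -0.13 and 0.15, while those between about 6 and 10 reach -0.88.

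No gene on the lists of other translation genes passed the adjusted test by treatment (limma). Of 8 measured ubiquitin fusions and paralogs outside the naming rule, 0 passed the adjusted test by treatment and 0 had an unadjusted p under 0.05. FAU, whose product is a small-subunit protein fused to a ubiquitin-like domain, was at 13.51 and 13.57 after LPS against 13.53 and 13.60. RPS27L, a p53-inducible paralog of RPS27, had 13.48 and 13.60 after LPS against 13.66 and 13.62, a difference of -0.10 with LPS arrays below untreated ones. RPL22L1, a paralog of RPL22, differed by -0.10 and RPL36AL by 0.09, both with intervals that included 0.

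Of 14 measured TOP mRNAs that encode no ribosomal protein, 0 passed and 0 had an unadjusted p under 0.05, and their median difference was 0.018. EEF2, the translocation factor, was at 13.33 and 13.68 after LPS, against 13.68 and 13.67 in untreated cells, so that again LPS array 1 alone was low. BTF3, a subunit of the nascent-chain complex, differed by 0.09. Of 25 ribosome biogenesis genes 0 passed, with a median of 0.030, the snoRNP protein gene NOP58 at -0.15 and the large-subunit assembly gene WDR12 at 0.17. Of 8 chaperones of ribosomal proteins 0 passed, with RPF2 at 0.12 and PDCD2 at -0.16. The 75 mitochondrial ribosomal protein genes had a median of 0.021 and 0 passed, with MRPS21 at 0.17 and MRPS18A at -0.28, and their median range over the 4 arrays was 0.19, against 0.12 for the 55 cytoplasmic ones.

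Of 13 genes that control the translation of TOP mRNAs, 0 passed the adjusted test and 1 had an unadjusted p under 0.05, as 2.83% of all genes did. This was TIA1, an RNA-binding protein that represses TOP mRNAs in stress. It was at 9.84 and 9.45 on the LPS arrays, against 10.24 and 9.96 on the untreated arrays. Both LPS arrays lay below both untreated arrays, and the difference was -0.45 (-0.82 to -0.09; limma, adjusted p = 1). Its number 2 minus number 1 difference was -0.33 (limma, adjusted p = 0.215). LARP4, a poly(A)-binding cofactor that stabilises mRNAs, differed by 0.13 (-0.10 to 0.37).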

How the data were processed

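Single-channel Affymetrix arrays were made from biotin-labelled cRNA of total RNA, per the labels' protocols. The deposited table holds log2 values, 1 column per array, and MAS5 and RMA are named per the submitters' processing notes without roles or versions. Background and normalization settings are not given in the sources used here. The values were used without further scaling. Probe sets were named from a platform annotation with symbols checked against current gene numbers (0 needed updating), and the 13584 probe sets with no or several symbols and the controls were left out of the tests. The treatment difference was fitted in R 4.3.3 by limma 3.58.1 (lmFit, eBayes with intensity trend, two-sided, no covariate), and the replicate numbers in a fit with treatment as a term. All p-values come from these fits, with Benjamini-Hochberg adjustment over all genes. For a single gene the smallest p of an exact permutation test in this design is 0.33. Precision is limited by having 2 arrays in each group. The members and lists were chosen with earlier results of these data known. Named members were the 6 highest and 6 lowest by each difference plus a fixed set of stalk, sensor and paralog genes. Figures were drawn with matplotlib 3.10.9. Quantile normalization, median centring, a filter on dim genes, other probe set rules, no trend, a replicate block, no group term and each array left out were tried.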

Additional observations from a re-analysis of the deposited data

How the results depend on the processing

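The count of ribosomal protein genes past the adjusted threshold stayed at 0 by treatment and by replicate number under every alternative that gave a test, including the replicate block. In that blocked fit the count by treatment was 0, with 1 member at an unadjusted p under 0.05. The count by replicate number over all genes depended on the processing, with 0 genes as deposited. It was 453 higher and 258 lower on number 2 after quantile normalization, and 161 higher and 442 lower after median centring. With no rescaling it was 6 lower and 0 higher without the group term. It was 4 lower with the filter on dim genes and 2 lower with the mean of probe sets. The cause was not tested. The smallest adjusted p of a member by number was 0.0599 (limma), after median centring. Centring also took the replicate-number median over members from 0.030 to 0.0013. Leaving out an array gave treatment medians of -0.020 to 0.022. The replicate-number medians were then -0.016 (without either LPS array) to 0.058. There was no test by number, because no residual degrees of freedom remain in that fit. Without either LPS array the value is that of the untreated arrays alone. It differed in sign from the 0.030 of all 4 arrays, by more than the spread of the array medians (0.037). By treatment, a group left with 1 array is assumed to vary like the other group. Without LPS array 2 the treatment median turned to -0.020 over members, with -0.012 over all genes. Without LPS array 1 these medians were 0.022 and 0.0465. The treatment median also changed sign under quantile normalization (-0.0073) and median centring (-0.017), and the replicate-number median with the mean of probe sets (-2e-04), without probe sets ending in _x_at or _s_at (-0.0045) and with every probe set as its own test (-0.0018), each within the spread of the array medians. Of 250 values of named members by treatment under the alternatives, 86 equalled the reported value because the alternative leaves the difference as it is. Of the other 164, 153 moved by less than that gene's spread between arrays and 11 by more, with 28 changes of sign. For the fits without 1 array this outcome was fixed in advance. Leaving out 1 array cannot move a treatment difference by more than that spread, so the count of 153 does not measure stability there. By number, 80 of 164 moved by less and 84 by more, with 29 changes of sign. Same-numbered arrays deviated together across genes (r = 0.44 over all genes and 0.24 over the ribosomal protein genes), though the labels do not pair them. Signals near the top of the scale and below the median over genes limit what a difference can show.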

Other observations

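Probe sets whose annotation lists a ribosomal protein symbol among several, most often beside a small nucleolar RNA encoded in an intron of the host gene, belong to no comparison above. There were 64 of them, 56 with a small nucleolar RNA among the symbols, and they covered 22 ribosomal protein symbols. Their LPS minus untreated difference had a median of 0.0061, and 38 lay above 0 and 26 below. The 44 of them at or above 13 ran from -0.19 to 0.11 by treatment and from -0.11 to 0.13 between number 2 and number 1.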
